A study of Mus musculus with 9 samples.

Results

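The piRNA pathway genes examined here are 10 genes of the germ line, Mov10l1, Mael, Asz1, Tdrd1, Tdrd5, Tdrd7, Tdrd9, Tdrkh, Piwil2 and Pld6, taken by gene name from a table of 27207 genes. All 10 were in the table and all 10 had enough counts to be tested. The material was RNA from 9 whole lungs of E18.5 mouse embryos, a stage shortly before birth. Wild type, weak and strong conditional knockout (CKO) of Dnmt1 had 3 lungs each, where weak stands for small lungs and strong for small lungs that also bled into the tissue. The CKO embryos of both groups carried Tbx4-rtTA and Tet-O-Cre and are labelled Dnmt1-D/D, while the wild type label names no allele or driver. Dnmt1 encodes the enzyme that copies DNA methylation onto new strands at cell division. Tbx4-rtTA is known as a driver for lung mesenchyme, so a whole lung also holds cells in which the deletion is not driven. The labels do not say whether lungs came from separate litters or were pooled, and p-values therefore measure the spread between these samples.

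PIWI-interacting RNAs (piRNAs) are short RNAs that guide PIWI proteins to transposon transcripts in germ cells, chiefly in the testis. Long precursors are cut at the outer membrane of mitochondria, loaded onto a PIWI protein and trimmed, and Tudor-domain proteins hold PIWI proteins in the granules next to mitochondria called nuage. In somatic tissues several of these genes are known to be silent, with methylated CpG-rich promoters, whereas others are also expressed outside the germ line.

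The bases upstream of 6 members are printed because the members part into genes that were near 0 in wild type lung and genes that were already expressed there, and their start regions can be read side by side. The first 4 are genes that rose in both CKO groups, and the last 2 are genes that were not called. Sequences are from RefSeq on GRCm38.p6, read 5′ to 3′ on the strand of the gene, in lower case with CpG dinucleotides, the sites DNMT1 methylates, in capitals. Each ends at the annotated start or, for Mov10l1 and Mael, where the GENCODE gene begins upstream of it. They lie at chr15:88982744-88982908 on the plus strand (Mov10l1), chr1:166238748-166238994 on the minus strand (Mael), chr12:111971309-111971558 on the plus strand (Tdrd9), chr6:18109062-18109311 on the minus strand (Asz1), chr19:56825959-56826208 on the plus strand (Tdrd1, its most upstream start) and chr11:59787658-59787907 on the minus strand (Pld6, its most upstream start).
Mov10l1: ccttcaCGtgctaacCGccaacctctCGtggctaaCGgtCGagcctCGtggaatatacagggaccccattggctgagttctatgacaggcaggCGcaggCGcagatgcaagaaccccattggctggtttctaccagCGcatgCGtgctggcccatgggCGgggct
Mael: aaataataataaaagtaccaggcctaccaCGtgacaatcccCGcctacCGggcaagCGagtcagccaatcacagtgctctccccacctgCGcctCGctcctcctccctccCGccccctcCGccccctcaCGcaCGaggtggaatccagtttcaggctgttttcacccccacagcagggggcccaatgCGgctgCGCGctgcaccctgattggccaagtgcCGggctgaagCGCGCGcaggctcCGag
Tdrd9: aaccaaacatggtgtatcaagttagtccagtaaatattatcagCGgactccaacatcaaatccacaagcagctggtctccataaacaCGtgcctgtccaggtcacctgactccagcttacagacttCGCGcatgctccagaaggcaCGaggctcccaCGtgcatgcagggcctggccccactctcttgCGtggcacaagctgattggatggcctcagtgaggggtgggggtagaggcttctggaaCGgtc
Asz1: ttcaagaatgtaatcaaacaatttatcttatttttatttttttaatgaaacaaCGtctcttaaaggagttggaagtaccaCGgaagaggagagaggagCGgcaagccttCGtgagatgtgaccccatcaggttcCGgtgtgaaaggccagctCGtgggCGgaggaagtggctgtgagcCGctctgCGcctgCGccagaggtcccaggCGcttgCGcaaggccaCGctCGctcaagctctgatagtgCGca
Tdrd1: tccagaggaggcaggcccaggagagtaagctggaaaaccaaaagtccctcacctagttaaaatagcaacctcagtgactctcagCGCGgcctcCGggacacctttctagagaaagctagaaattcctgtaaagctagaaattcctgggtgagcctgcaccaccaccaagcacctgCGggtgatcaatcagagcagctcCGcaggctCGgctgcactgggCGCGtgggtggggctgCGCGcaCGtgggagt
Pld6: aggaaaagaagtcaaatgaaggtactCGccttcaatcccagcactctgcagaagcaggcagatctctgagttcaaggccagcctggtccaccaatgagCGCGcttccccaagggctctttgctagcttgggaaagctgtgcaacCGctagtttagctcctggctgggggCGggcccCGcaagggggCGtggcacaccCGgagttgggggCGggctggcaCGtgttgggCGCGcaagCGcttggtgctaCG

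CpG dinucleotides stood in the start regions of genes that rose and of genes that did not. RefSeq start regions (250 bases before to 50 after a start) were found for 9 members, with 14 starts in all, among 32851 starts. Over all starts the median was 7 CpG in 300 bases, with quartiles at 3 and 20. Among the members that rose in both CKO groups, Mov10l1 held 20, Mael 24, Asz1 17 and Tdrd9 10. Tdrkh, which rose in strong CKO, held 25. Among the members that were not called, Tdrd5 held 48, Tdrd1 20, 25 and 3 at its 3 starts, Tdrd7 4, 32 and 32, and Pld6 25 and 18. The ratio of observed to expected CpG was 0.674 in Mov10l1, 0.78 in Mael, 0.783 in Asz1, 0.43 in Tdrd9, 0.956 in Tdrkh and 1.11 in Tdrd5, beside a median of 0.384 over all starts. Every member with an entry thus had at least 1 start with more CpG than the median start, and the members called and not called overlapped in this count.

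**Figure D1:**
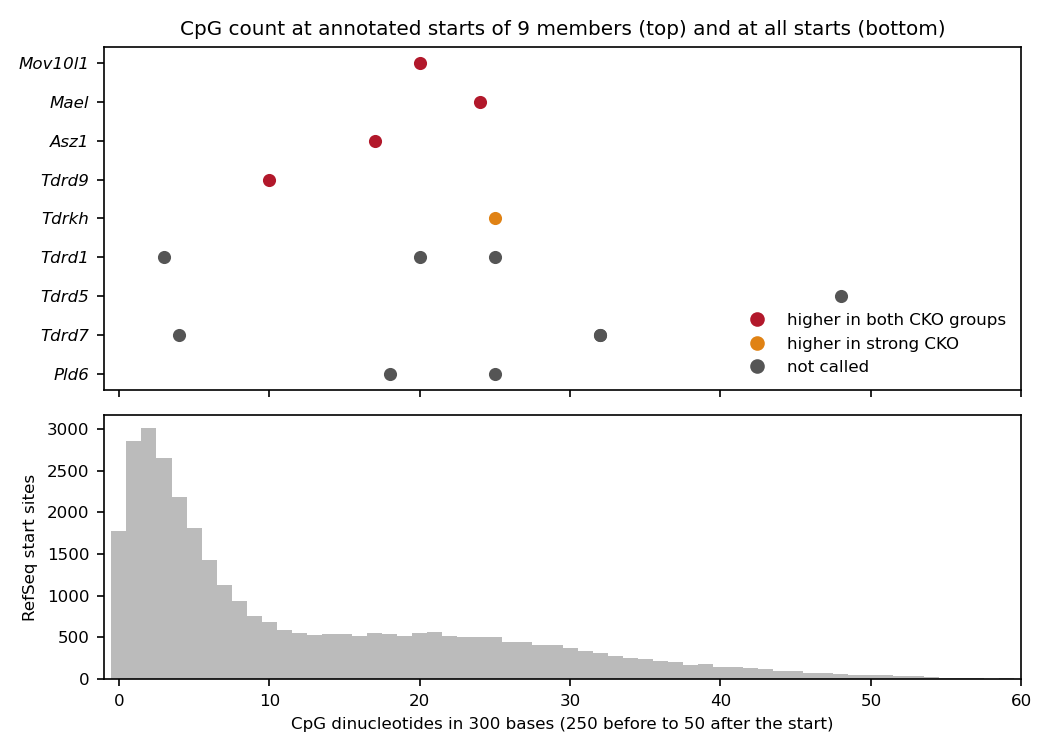
The upper panel plots the CpG dinucleotides in 300 bases at each annotated start of 9 members (1 dot per start; 2 starts of Tdrd7 share the dot at 32), and the lower panel the number of RefSeq starts with each CpG count. Called and uncalled members overlap on the axis, and Tdrd5 lies farthest to the right at 48.

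The letters CACGTG, which read the same on both strands and are the core of the E-box bound by MYC, MAX and other factors, were found in 5 of the 9 members. Their first base lay 246 bases before the start of Mov10l1, 223 before that of Mael, 165 and 95 before that of Tdrd9, 11 before the most upstream start of Tdrd1 and 33 before that of Pld6. In the printed sequences they appear as caCGtg. By start, 6 of the 14 member entries held them, beside 7.15% of all starts, and by gene 8.09% of all genes held them at 1 start or more. The letters TCCCGC (either strand), the core of an E2F6 motif, were found in Mael and Tdrd5, beside 22% of all genes. No match of one motif overlapped a match of the other. Of the genes with CACGTG, 3 rose and 2 were not called, so that the letters were present in both classes.

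Library depth, the targeted gene and the make-up of the lungs were checked across the 9 libraries. Total counts ran from 25607595 to 33156732, and levels are given as CPM, the counts scaled to library size with TMM factors, the trimmed-mean library scaling of edgeR. Dnmt1 lay at 79.1, 121 and 97.2 CPM in wild type, 59.1, 69.1 and 80.6 CPM in weak CKO and 62, 78.7 and 65.1 CPM in strong CKO. Its log2 change was −0.51 ± 0.17 (SE) in weak CKO, not called (adjusted p = 0.0727 in edgeR's quasi-likelihood test), and it fell by 0.53 ± 0.17 in strong CKO (adjusted p = 0.0433), a call that 11 of 20 alternatives ended. Of all genes tested 9.09% were called higher and 5.38% lower in weak CKO, and 14.6% and 11% in strong CKO. Surfactant and other lung epithelium markers summed to 11798 to 17417 CPM in wild type, 12737 to 13761 in weak CKO and 10959 to 12125 in strong CKO. Of these 8 markers 1 rose and 1 fell in weak CKO and 1 rose and 4 fell in strong CKO. Endothelial markers summed to 2018 to 2628 CPM in wild type, 1792 to 1837 in weak CKO and 1331 to 1670 in strong CKO. Of these 6 markers 0 rose, and 3 fell in weak CKO and 6 in strong CKO. Macrophage markers summed to 108 to 154, 215 to 258 and 214 to 297 CPM. Of these 6 markers 0 fell, and 5 rose in weak CKO and 6 in strong CKO. Erythroid markers summed to 3948 to 7398, 3777 to 4393 and 6763 to 12694 CPM, and of the 7 markers 0 rose and 0 fell in either CKO group. Of the 8 markers of lung mesenchyme, the compartment of the driver, 1 rose and 4 fell in weak CKO (median log2 change −0.56) and 1 rose and 6 fell in strong CKO (median −0.74). Among them Tbx4, a transcription factor of that tissue, had means of 175, 108 and 89.8 CPM in wild type, weak and strong CKO. Their sum, 4070 to 4569, 4469 to 4649 and 4447 to 4964 CPM, is carried by the collagen genes Col1a1 (1217, 1382 and 1535 CPM) and Col3a1 (1854, 2369 and 2531 CPM). Tbx4 and the collagen genes were picked after their values were seen. The Y-linked gene Ddx3y was at 165 and 159 CPM in WT_265_1 and WT_549_2, at 166 CPM in MUT_W_268_3 and at 0.0377 CPM or less in the other 6 libraries. Xist was at 2.51 and 4.51 CPM in WT_265_1 and WT_549_2 and at 956 CPM or more in the other 7, so that MUT_W_268_3 held both transcripts and no strong CKO library held the Y-linked one. Without MUT_W_268_3, the 5 members that rose in weak CKO were all still called (log2 changes of 6.44 for Mov10l1, 5.02 for Mael, 0.80 for Asz1, 5.04 for Tdrd9 and 4.15 for Piwil2). With a covariate for the Y-linked level 5 members also rose in weak CKO, and in strong CKO 5 in place of 6, the exception being Tdrkh. The part of the shifts in mesenchymal, epithelial, endothelial, macrophage and erythroid markers in the results on the members was not tested.

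The lungs of both CKO groups held transcripts of Mov10l1, Mael, Piwil2 and Tdrd9, 4 genes that were close to 0 in wild type lung. Asz1 rose from a level that was already well above 0, Tdrkh rose a little in strong CKO, and Tdrd1, Tdrd5, Tdrd7 and Pld6 were not called in either CKO group. In weak CKO 5 of the 10 members rose and 0 fell, with a median log2 change of 0.53 over the 10 (−0.01 over all genes tested), where 9.09% of all genes tested were called higher and 5.38% lower. All weak CKO libraries lay above all wild type libraries for 5 members (17.7% of all genes) and below them for 1 (13.8%). In strong CKO 6 rose and 0 fell, with a median of 0.70 (0.00 over all genes tested), where 14.6% of all genes were called higher and 11% lower. All strong CKO libraries lay above all wild type libraries for 6 members (22.7% of all genes) and below them for 2 (19%). With the 6 CKO libraries as one set against wild type 5 rose and 0 fell, beside 15.1% and 11.5% of all genes. A gene was called where the adjusted p of edgeR's quasi-likelihood F test, adjusted over all 19374 genes tested, was under 0.05. The counts of 0 are from edgeR. At an unadjusted p under 0.05, 1 member, Tdrd7, was lower in each of these comparisons, and DESeq2 called 0 members lower in weak CKO, 0 in strong CKO and 1 with the 6 CKO libraries as one set. In a bulk sample more cells that express a gene and more RNA per cell cannot be told apart.

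**Figure D2:**
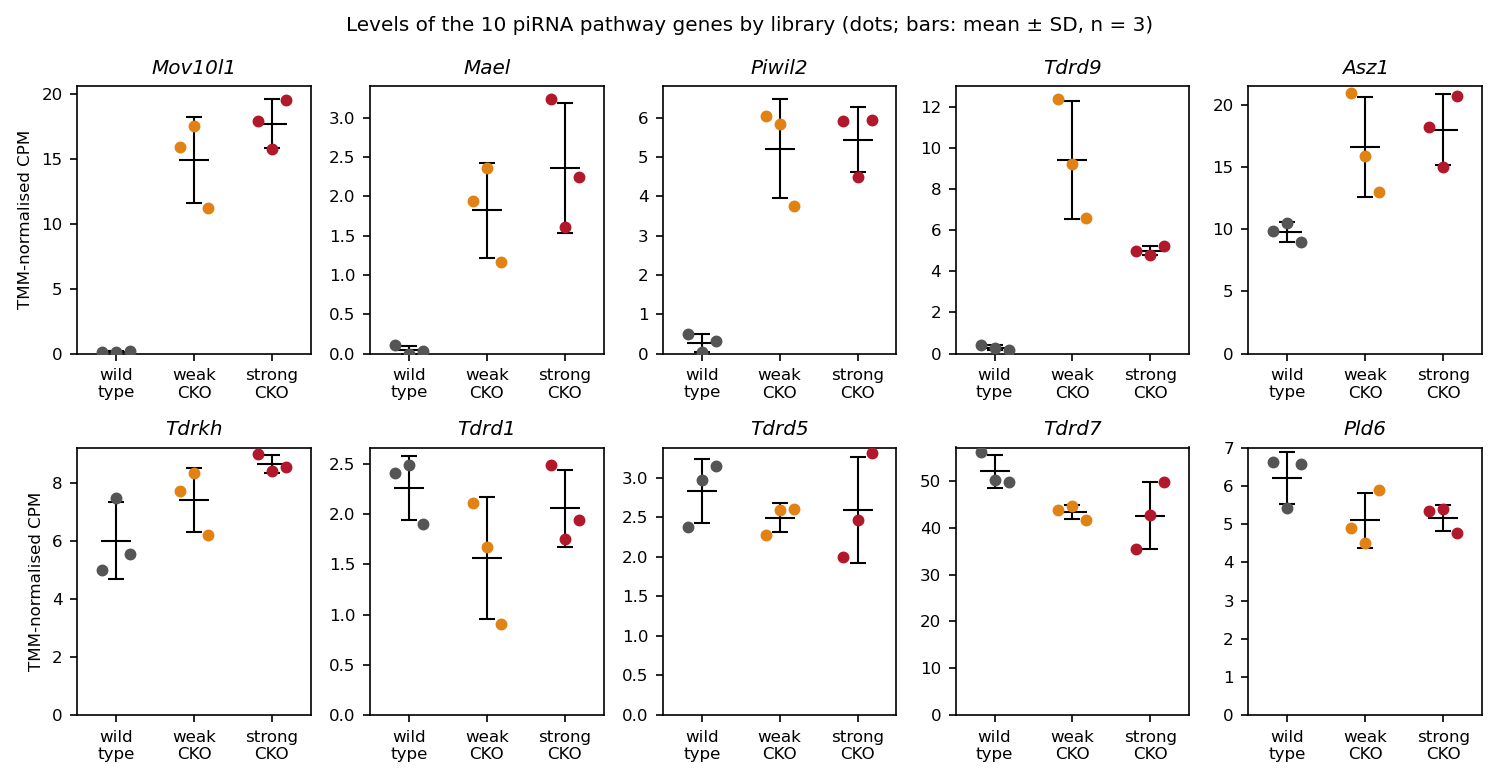
Each panel plots 1 member, with TMM-normalised CPM on a linear axis from 0, 1 dot per library and bars for the mean ± SD (n = 3). In the first 4 panels every CKO library lies above every wild type library and the wild type libraries lie near 0, while in the panels of Tdrd1, Tdrd5 and Pld6 the weak CKO and wild type libraries overlap.

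Among the genes that make and trim piRNAs at mitochondria, the helicase gene was the one that went from near 0 to a readily detected level. Mov10l1 (ENSMUSG00000015365, chromosome 15, 88982909 to 89055152 in GRCm38, plus strand) encodes the RNA helicase that binds piRNA precursors and feeds them to processing. It lay at 0.105, 0.129 and 0.218 CPM in the wild type libraries, which is 3, 4 and 7 counts. It lay at 15.9, 17.5 and 11.2 CPM in weak CKO and at 17.9, 15.7 and 19.5 CPM in strong CKO. All 6 CKO libraries were far above all 3 wild type libraries. The mean went from 0.151 ± 0.0595 CPM to 14.9 ± 3.30 and 17.7 ± 1.91 CPM (SD, n = 3 each). The log2 change was 6.57 ± 0.28 in weak CKO (SE; adjusted p = 1.45e-06) and 6.82 ± 0.28 in strong CKO (adjusted p = 9.53e-07) in edgeR's test.

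Asz1 (ENSMUSG00000010796, chromosome 6, 18050964 to 18109061, minus strand) encodes a mitochondrial scaffold of nuage also called GASZ. The wild type libraries held 9.84, 10.5 and 8.96 CPM, the weak CKO libraries 20.9, 15.9 and 13.0 CPM and the strong CKO libraries 18.2, 15 and 20.7 CPM. Every CKO library lay above every wild type library, but the lowest of them, MUT_W_549_3, was only a little higher. In edgeR's fit the log2 change was 0.76 ± 0.17 in weak CKO (adjusted p = 0.0173 in edgeR) and 0.88 ± 0.18 in strong CKO (adjusted p = 0.00519). The weak CKO call ended without WT_549_2 (0.71) or MUT_W_265_2 (0.57) and on the log2(RPKM + 1) scale with and without a filter (0.50 in both), whereas the strong CKO call held in every alternative run.

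Tdrkh (ENSMUSG00000041912, chromosome 3, 94413273 to 94434668, plus strand) encodes a Tudor protein of the mitochondrial surface that helps to trim piRNAs. It lay at 4.99, 7.49 and 5.54 CPM in wild type, at 7.70, 8.32 and 6.20 CPM in weak CKO and at 9, 8.42 and 8.53 CPM in strong CKO. The weak CKO libraries overlapped the wild type ones and the strong CKO libraries lay above them. Against wild type the log2 change was 0.30 ± 0.17 in weak CKO (adjusted p = 0.278 in edgeR), not called, and 0.52 ± 0.17 in strong CKO (adjusted p = 0.0444). The strong CKO call ended in 13 of 20 alternatives, where adjusted p ran from 0.0123 to 0.182 over all 20. Those included leaving out WT_265_1 (0.41), WT_549_2 (0.47), MUT_W_265_2 (0.53), MUT_W_268_3 (0.53), MUT_S_265_5 (0.50), MUT_S_268_4 (0.55) or MUT_S_860_3 (0.54), and the Y-linked covariate (0.45). Exons of Tdrkh overlap those of Oaz3 on the opposite strand, which lay at 0.207 CPM in wild type and 0.396 CPM in strong CKO, and whether the counting used strand is not given in the sources used here.

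Pld6 (ENSMUSG00000043648, chromosome 11, 59783897 to 59787645, minus strand) encodes the phospholipase D family protein of the mitochondrial outer membrane that is known as the piRNA precursor nuclease Zucchini in flies. The wild type libraries held 6.63, 5.43 and 6.57 CPM, the weak CKO libraries 4.90, 4.50 and 5.89 CPM and the strong CKO libraries 5.35, 5.39 and 4.78 CPM. The strong CKO libraries lay just below the lowest wild type library. As a log2 change this was −0.28 ± 0.15 in weak CKO (adjusted p = 0.244 in edgeR) and −0.26 ± 0.15 in strong CKO (adjusted p = 0.225), and neither was called.

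The PIWI protein of the set was among the genes that appeared. Piwil2 (ENSMUSG00000033644, chromosome 14, 70372477 to 70429383, minus strand) encodes the PIWI protein MILI, which takes up piRNAs and cuts transposon RNA. It lay at 0.488, 0.0323 and 0.311 CPM in wild type (14, 1 and 10 counts), at 6.06, 5.85 and 3.76 CPM in weak CKO and at 5.91, 4.50 and 5.95 CPM in strong CKO. The groups did not overlap, and WT_268_1 was well below the other wild type libraries. The log2 change was 4.23 ± 0.48 in weak CKO (adjusted p = 0.000473 in edgeR) and 4.29 ± 0.48 in strong CKO (adjusted p = 0.000279), with 4.88 and 4.94 without WT_265_1 and 3.70 and 3.77 without WT_268_1.

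Of the nuage partners, Tdrd9 and Mael appeared as well. Tdrd9 (ENSMUSG00000054003, chromosome 12, 111971559 to 112068854, plus strand) encodes a helicase with a Tudor domain that acts in transposon silencing. It lay at 0.419, 0.291 and 0.156 CPM in wild type, at 12.4, 9.22 and 6.61 CPM in weak CKO and at 5.01, 4.78 and 5.25 CPM in strong CKO. The fitted log2 change was 5.02 ± 0.33 in weak CKO (adjusted p = 1.05e-05 in edgeR) and 4.12 ± 0.33 in strong CKO (adjusted p = 2.77e-05). Every CKO library lay above every wild type library, and the weak CKO libraries all lay above the strong CKO libraries.

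Mael (ENSMUSG00000040629, chromosome 1, 166201201 to 166238747, minus strand) encodes maelstrom, a nuage protein of transposon silencing. It had 3, 0 and 1 counts in wild type (0.105, 0 and 0.0311 CPM), which makes the size of its fold change uncertain. It lay at 1.94, 2.36 and 1.16 CPM in weak CKO (57, 79 and 37 counts) and at 3.24, 1.61 and 2.24 CPM in strong CKO (86, 45 and 67 counts). Every CKO library was above the highest wild type library. The log2 change was 5.25 ± 0.63 in weak CKO (adjusted p = 0.000461 in edgeR) and 5.62 ± 0.63 in strong CKO (adjusted p = 0.000181), and without WT_265_1, which held 3 of the wild type counts, 6.51 and 6.89. Without WT_268_1, which held 0 counts, these changes were 4.70 and 5.07.

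Tdrd1, Tdrd5 and Tdrd7, the other Tudor genes of nuage, were not called. Tdrd1 (ENSMUSG00000025081, chromosome 19, 56826209 to 56870012, plus strand) encodes a Tudor protein that binds MILI in nuage. It lay at 2.41, 2.49 and 1.90 CPM in wild type, at 2.11, 1.67 and 0.909 CPM in weak CKO and at 2.49, 1.75 and 1.94 CPM in strong CKO. Both CKO groups overlapped wild type, and MUT_W_549_3 was the lowest library. On the log2 scale the change was −0.54 ± 0.29 in weak CKO (adjusted p = 0.262 in edgeR) and −0.14 ± 0.29 in strong CKO (adjusted p = 0.760).

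Tdrd5 (ENSMUSG00000060985, chromosome 1, 156255296 to 156303664, minus strand) encodes a Tudor protein needed in spermatids and for transposon silencing. It lay at 2.37, 2.97 and 3.14 CPM in wild type, at 2.28, 2.59 and 2.60 CPM in weak CKO and at 2, 2.46 and 3.31 CPM in strong CKO. The 3 groups overlapped. The log2 change was −0.18 ± 0.21 in weak CKO (adjusted p = 0.626 in edgeR) and −0.13 ± 0.21 in strong CKO (adjusted p = 0.701), and the strong CKO value was 0.03 without MUT_S_265_5.

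Tdrd7 (ENSMUSG00000035517, chromosome 4, 45965334 to 46034761, plus strand) encodes a Tudor protein that is also known for its part in RNA granules of the eye lens. It was the most abundant member in wild type, at 56.1, 50.3 and 49.8 CPM, and lay at 43.7, 44.7 and 41.7 CPM in weak CKO and at 35.4, 42.8 and 49.7 CPM in strong CKO. All 6 CKO libraries lay below the wild type libraries, MUT_S_860_3 by the smallest margin. The log2 change was −0.26 ± 0.11 in weak CKO (adjusted p = 0.144 in edgeR) and −0.29 ± 0.11 in strong CKO (adjusted p = 0.0814), neither of them called. Without MUT_S_860_3 the strong CKO change was −0.41 and called (adjusted p = 0.0213).

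**Figure D3:**
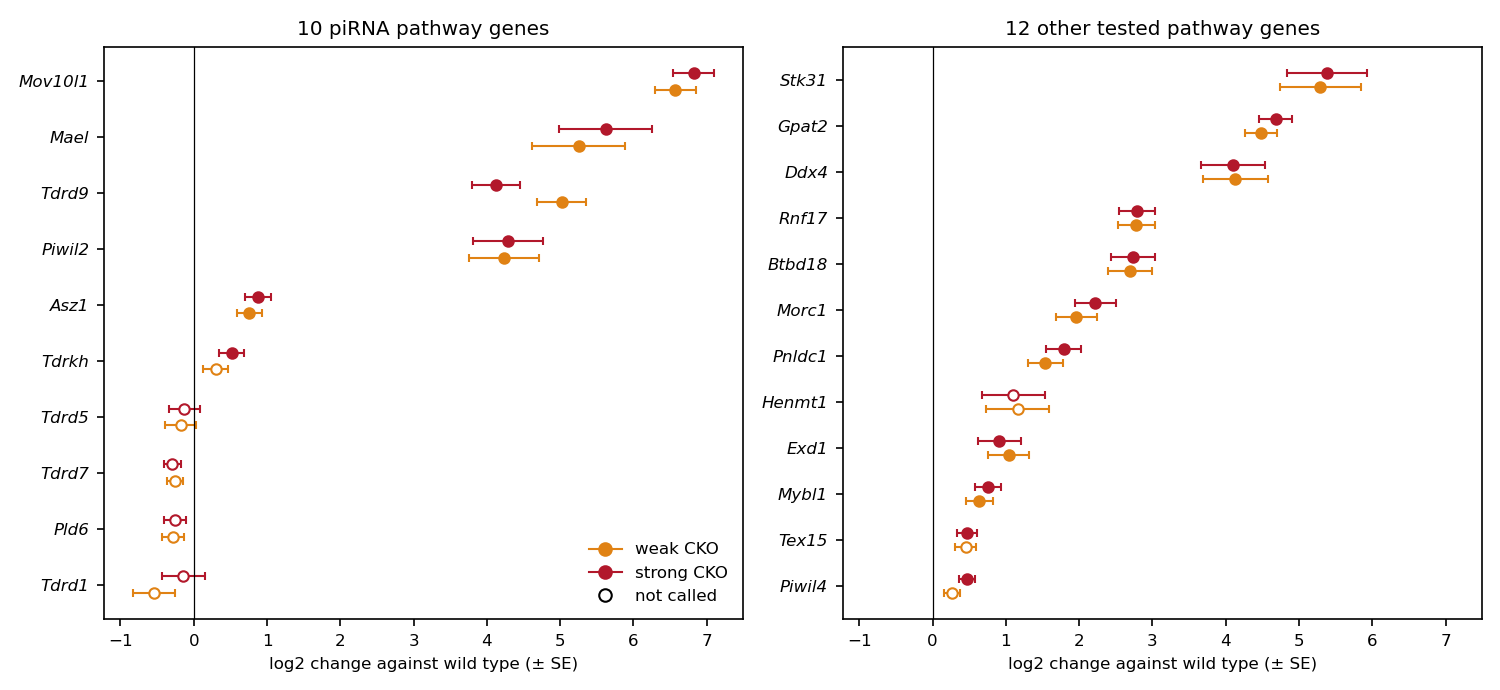
The log2 change against wild type is plotted for the 10 members (left) and for 12 of the 14 other pathway genes tested (right), with bars for the SE, filled symbols where the adjusted p was under 0.05 and open symbols elsewhere. Gtsf1 and Fkbp6 are left out because wild type held 0 and 1 counts of them. Mov10l1, Mael, Tdrd9 and Piwil2 lie at 4.12 or more in both CKO groups, and the members from Tdrd5 down lie at or below −0.13.

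Per length, the members changed places. Levels between genes were compared as CPM per kilobase of merged exons, since the deposited gene length sums the exons of all transcripts (20138 bases for Tdrd1, beside 5443 bases of merged exons). In wild type lung the order was Tdrd7 (13.2), Pld6 (3.53), Asz1 (3.46), Tdrkh (0.978), Tdrd1 (0.416), Tdrd5 (0.408), Tdrd9 (0.0532), Piwil2 (0.0525), Mov10l1 (0.036) and Mael (0.0261). Pld6 and Asz1, Tdrd1 and Tdrd5, and the last 4 genes differed from their neighbour in that order by less than the larger SD of the pair. In strong CKO lung Tdrd7 remained highest (10.8), Asz1 came next (6.35), Mov10l1 followed (4.23), and Mael (1.36) and Piwil2 (1.03) lay near Tdrkh (1.41). Tdrd9 was at 0.926 in strong CKO and 1.74 in weak CKO, and Tdrd1 (0.378) and Tdrd5 (0.373) were the lowest members in strong CKO.

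**Figure D4:**
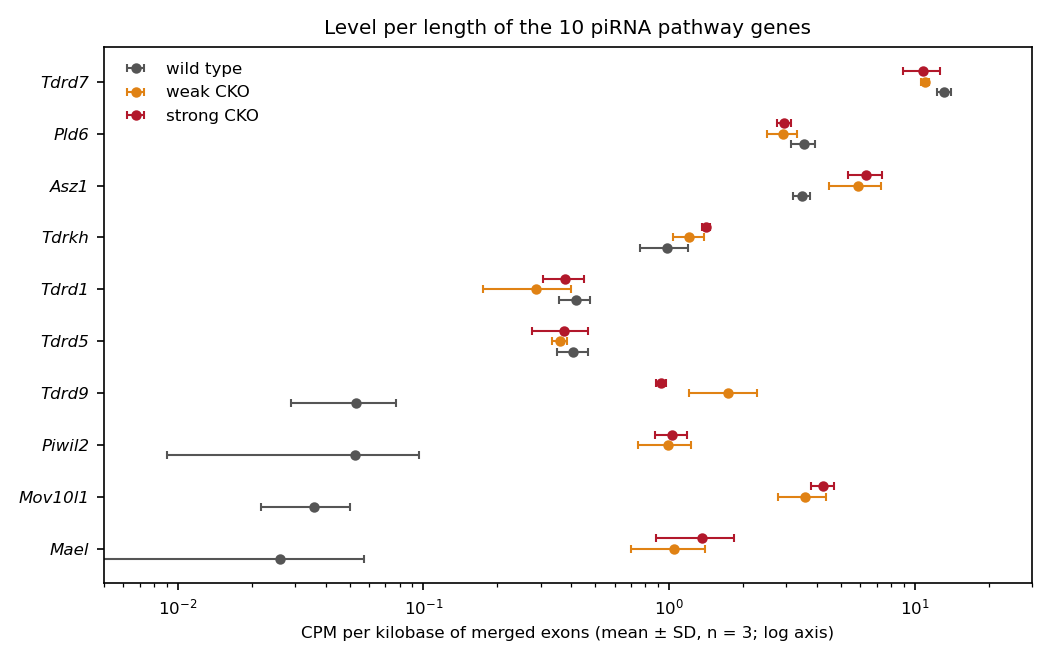
The level of each member in CPM per kilobase of merged exons is plotted on a log axis by group, as mean ± SD (n = 3). The 4 genes at the bottom sit under 0.1 in wild type and near or above 1 in the CKO groups. The lower bar of Mael in wild type runs off the axis because its SD (0.031) exceeds its mean (0.0261).

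The comparison of strong with weak CKO asks whether the pathway genes differ between lungs with and without bleeding. None of the 10 members was called (0 rose and 0 fell in edgeR's quasi-likelihood test, and at an unadjusted p under 0.05 only Tdrd9 would have passed), where 0% of all genes were called higher and 0.00516% lower. DESeq2 also called 0 members. The log2 differences ran from −0.90 in Tdrd9 to 0.40 in Tdrd1. For Tdrd9 the strong CKO libraries (4.78 to 5.25 CPM) all lay below the weak CKO libraries (6.61 to 12.4 CPM), as was so for 6.73% of all genes. Its log2 difference was −0.90 ± 0.24 (unadjusted p = 0.00387, adjusted p = 0.873 in edgeR), and over the alternatives it ran from −1.14 to −0.28 with adjusted p from 0.156 to 1. For Tdrkh the strong CKO libraries all lay above the weak CKO libraries (log2 difference 0.22 ± 0.17, adjusted p = 0.905), as was so for 6.7% of all genes. The missed thresholds do not show that weak and strong CKO lungs had the same levels.

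Other genes of the pathway gave a wider view. The list held 22 genes, of which 20 were in the table and 14 had enough counts to be tested; Gtsf2 and Spocd1 were not analysed here. In weak CKO 11 of the 14 rose and 0 fell, where 9.09% of all genes tested were called higher and 5.38% lower. In strong CKO 13 rose and 0 fell, where 14.6% of all genes tested were called higher and 11% lower. The median log2 changes of the 14 genes were 2.33 in weak CKO and 2.48 in strong CKO. These medians were the same with Gtsf1 at its lower bound and Fkbp6 at its ratio of counts, which had to be so because both stayed above the median. In strong against weak CKO 0 were called in either direction by edgeR and by DESeq2, and 0 at an unadjusted p under 0.05. Of all genes tested, edgeR called 0% higher and 0.00516% lower in that comparison. None of the 14 was lower than wild type at an unadjusted p under 0.05 in either CKO group, and DESeq2 called 0 lower. Some of these genes were among germline genes already known from these data to be higher in CKO, so the count is no independent evidence of a direction. Since a gene close to 0 in wild type passes the count filter through the group in which it is high, the counts refer to the 14 tested genes and not to the list.

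The 5 largest changes of the list were those of Ddx4, Gpat2, Stk31, Fkbp6 and Gtsf1. Ddx4, which encodes the germ cell helicase VASA, lay at 0.837, 0.420 and 0.560 CPM in wild type, at 12.3, 14 and 5.51 CPM in weak CKO and at 12.8, 7.14 and 11.3 CPM in strong CKO (log2 changes of 4.13 ± 0.44 and 4.10 ± 0.44). Gpat2, a mitochondrial protein of primary piRNA production, went from 0.686 ± 0.0988 CPM to 15.4 ± 3.20 and 17.7 ± 2.68 CPM (4.48 ± 0.22 and 4.68 ± 0.22). Stk31, a Tudor protein with a kinase-like domain, went from 0.242 ± 0.186 CPM to 9.54 ± 3.64 and 10.2 ± 2.69 CPM (5.29 and 5.38). Fkbp6, a co-chaperone in piRNA loading, had 1 count in the 3 wild type libraries together and 639 and 662 counts in weak and strong CKO. After scaling to library size the ratio was 618 in weak CKO (95% counting interval 111 to 24466) and 719 in strong CKO (129 to 28436). Gtsf1, a small zinc finger partner of PIWI proteins, had 0 counts in wild type and 128 and 126 counts in weak and strong CKO. Against a floor of 3 counts over the wild type libraries (0.0327 CPM) it was at least 41.4-fold higher in weak CKO and at least 45.9-fold higher in strong CKO. Intervals and floors cover counting error only.

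Further members of the wider list rose by less. The log2 changes in weak and strong CKO were 2.78 and 2.79 for the Tudor gene Rnf17, 2.70 and 2.73 for Btbd18, a nuclear factor of piRNA precursor transcription, and 1.96 and 2.22 for Morc1, a germ line silencing factor. They were 1.54 and 1.79 for Pnldc1, the trimming exonuclease, which went from 0.857 ± 0.148 CPM to 2.5 ± 0.549 and 2.98 ± 0.410 CPM. Exd1, a partner of Tdrd12, rose by 1.04 and 0.91, and Mybl1, the transcription factor A-MYB that drives pachytene piRNA precursors, by 0.64 and 0.76. The weak CKO calls of both lay near the threshold, with adjusted p-values of 0.034 and 0.0374 in edgeR, and changed in 10 and 13 of 20 alternatives. That of Exd1 ended without WT_268_1 (0.85), WT_549_2 (1.04), MUT_W_265_2 (0.87), MUT_W_268_3 (1.13) or MUT_S_860_3 (1.04), and its strong CKO call without WT_268_1 (0.73), WT_549_2 (0.91), MUT_W_268_3 (0.92), MUT_S_265_5 (0.76) or MUT_S_860_3 (0.92). That of Mybl1 ended when any library other than WT_268_1 was left out (values of 0.46 to 0.68), and its strong CKO call held when any library was left out.

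Of the genes with a clear level in wild type lung, Piwil4, which encodes the nuclear PIWI protein MIWI2, lay at 18.6, 17.7 and 17.8 CPM there, at 21.7, 24.6 and 18.9 CPM in weak CKO and at 27.6, 22.4 and 24.8 CPM in strong CKO. It rose in strong CKO (log2 change 0.47 ± 0.11, adjusted p = 0.0109 in edgeR) and missed the threshold in weak CKO (0.27 ± 0.11; its adjusted p was 0.134). Tex15, a partner of MIWI2 in transposon silencing, lay at 38.4 ± 6.69 CPM in wild type and rose in strong CKO (0.47 ± 0.14, adjusted p = 0.0326). In weak CKO its change was 0.45 ± 0.14 (adjusted p = 0.056), which passed the threshold in 5 of 20 alternatives, among them DESeq2 (0.44), upper quartile scaling (0.47) and the fits without WT_268_1 (0.57) or MUT_W_549_3 (0.54). The strong CKO call of Tex15 ended without WT_265_1 (0.49), WT_549_2 (0.34), MUT_S_265_5 (0.51), MUT_S_268_4 (0.48) or MUT_S_860_3 (0.42). Henmt1, the methyltransferase that caps the 3′ end of piRNAs, had no such level, with 7, 4 and 9 counts in the wild type libraries (mean 0.218 CPM). Its means were 0.490 and 0.473 CPM in weak and strong CKO, and every CKO library lay above every wild type library. It was not called, with log2 changes of 1.16 ± 0.43 (adjusted p = 0.0958 in edgeR) and 1.1 ± 0.43 (adjusted p = 0.0846). With the Y-linked covariate both changes were called (1.46 and 1.79).

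Of the 20 other pathway genes in the table, 6 were too low to be tested. Piwil1, the PIWI gene of meiotic and later male germ cells, had 3 counts in the 3 wild type libraries and 6 in the weak CKO libraries, a ratio of 1.94 with a 95% counting interval of 0.413 to 12, and no more than 0.0669 CPM in any strong CKO library. Tdrd6, Tdrd12, Gtsf1l, Dnmt3l and Dnmt3c were the other 5. Their means lay between 0.0435 and 0.299 CPM in every group. In wild type, weak and strong CKO, Dnmt3c had 4, 17 and 16 counts in all and Tdrd12 had 14, 11 and 25. Tdrd6 had 17, 17 and 13, Gtsf1l 12, 11 and 12, and Dnmt3l 24, 19 and 17.

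**Figure D5:**
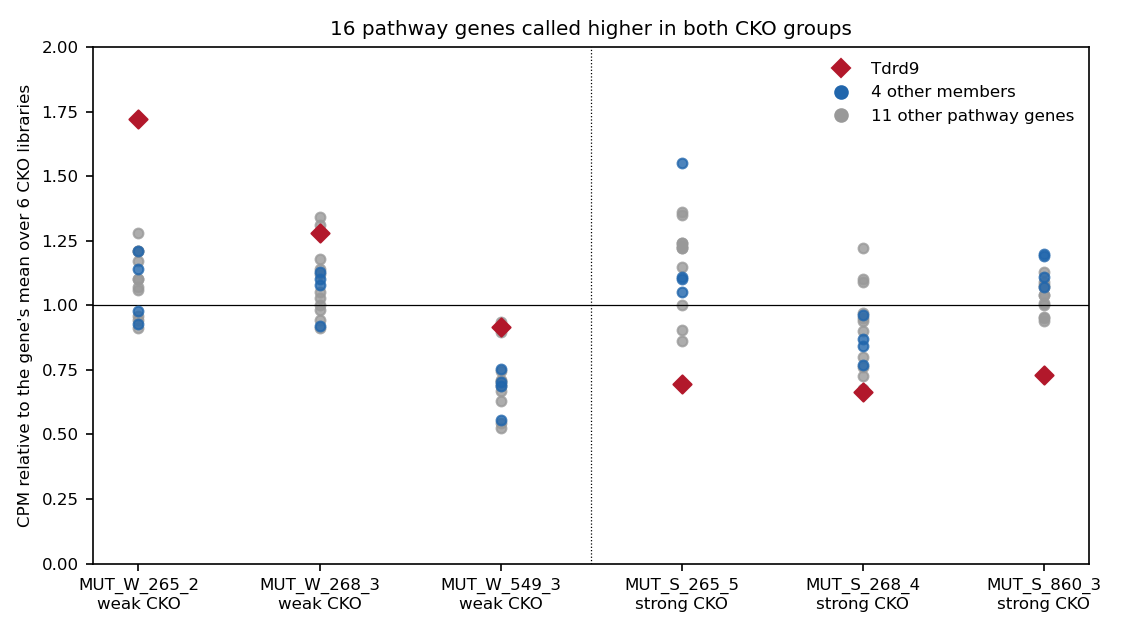
For each of the 16 pathway genes called higher in both CKO groups, the CPM in each of the 6 CKO libraries is plotted relative to the mean of the gene over those libraries. In MUT_W_549_3 all dots lie below 1. Tdrd9 (diamonds) lies above the other genes in MUT_W_265_2 and below all of them in the strong CKO libraries, narrowly so in MUT_S_268_4.

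The pathway genes called higher in both CKO groups lay at uneven levels from lung to lung. The 5 members and 11 other pathway genes called higher in both CKO groups were set relative to their own mean over the 6 CKO libraries. MUT_W_549_3 was the lowest library for 14 of the 16 genes, with a median relative level of 0.699. Genes in the same library are not independent, and the share of all genes that were lowest there was not counted. It was also the lowest CKO library for Tdrd1 and Tdrkh, which are outside this set. Tdrd5 and Tdrd7 were lowest in MUT_S_265_5 and Pld6 in MUT_W_268_3. In MUT_W_549_3 Mov10l1 was at 11.2 CPM, against 15.7 CPM or more in the other CKO libraries. Ddx4 was at 5.51 CPM in MUT_W_549_3, against 7.14 CPM or more. MUT_S_268_4 was the lowest for the remaining 2 genes, Tdrd9 and Exd1, with a median of 0.885. MUT_S_265_5 was the highest for 7 genes, with a median of 1.19, and the other 3 libraries had medians of 1.06 to 1.1. Dnmt1 was at 80.6 CPM in MUT_W_549_3 and at 78.7 CPM in MUT_S_268_4, and at 59.1 to 69.1 CPM in the other 4 CKO libraries. These values are given as a description of 6 libraries, and no relation between them was tested.

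A list of 14 genes held the general small RNA machinery outside the germ line, such as Argonaute and microRNA processing genes. Their log2 changes ran from −0.25 to 0.24 in weak CKO and from −0.34 to 0.29 in strong CKO. Of these 14 genes 1 rose and 1 fell in weak CKO (median log2 change −0.14) and 1 rose and 3 fell in strong CKO (median −0.08). Of all genes 9.09% and 5.38% were called higher and lower in weak CKO and 14.6% and 11% in strong CKO. Drosha, the nuclease that cuts microRNA precursors, rose by 0.24 and 0.29. Ago4 fell by 0.23 and 0.34, Ago2 by 0.30 in strong CKO, and Prkra, a partner of Dicer, by 0.34 in strong CKO. The weak CKO calls of Drosha and Ago4 lay near the threshold (adjusted p = 0.0377 and 0.0497 in edgeR) and ended in most alternatives (0.20 to 0.29 and −0.27 to −0.18 with single libraries left out). The strong CKO calls of Ago2 (−0.27) and Prkra (−0.29) ended without MUT_S_265_5, and that of Prkra also without MUT_S_860_3 (−0.29). Of 6 broadly expressed Tudor genes and arginine methylation partners, Wdr77, the partner of the methyltransferase PRMT5, rose in both CKO groups (0.45 and 0.59) and Tdrd3 fell in strong CKO (−0.31).

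Markers of germ cells and of gonadal somatic cells were read in the same libraries. Of 12 germ cell markers 9 were in the table and 6 were tested. Dazl, an RNA-binding protein of germ cells, rose from 0.251 CPM in wild type to 202 and 249 CPM (log2 changes of 9.63 and 9.93). Dnd1 rose in strong CKO (0.88, with the call lost without WT_265_1 at 0.75, WT_268_1 at 0.73, MUT_W_268_3 at 0.89, MUT_S_265_5 at 0.72 or MUT_S_860_3 at 0.92), and the receptor gene Kit, which other cells of the lung also express, fell in both (−0.70 and −0.93). Of the markers in the table, 5 did not reach 1 CPM in any group mean. Nanog lay at 0.456, 0.410 and 0.391 CPM, Nanos2 at 0.085, 0.054 and 0.0468, Nanos3 at 0.870, 0.839 and 0.809, Tfap2c at 0.187, 0.584 and 0.225, and Sall4 at 0.0871, 0.0303 and 0.117 CPM in wild type, weak and strong CKO. Prdm1, which other cell types also express, lay at 25.1, 21.7 and 21.1 CPM. Summed over the list, the germ cell markers lay at 163 to 184 CPM in wild type, 252 to 359 in weak CKO and 320 to 389 in strong CKO. Kit (147 CPM) and Prdm1 (25.1 CPM) carried the wild type sum, and both had lower means in the CKO groups. The higher sums in CKO were carried by Dazl (202 and 249 CPM).

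Of 11 markers of gonadal somatic cells 9 were in the table and 6 were tested, and they summed to 23.4 to 28.3 CPM in wild type, 28 to 29.3 in weak CKO and 30 to 41.3 in strong CKO. Wnt4 (0.97 and 1.25), Cyp11a1 (1.85 and 2.65) and Gata4 (0.80 and 0.95) rose in both CKO groups and Amh (1.70) in weak CKO. Thus 4 of the 6 rose and 0 fell in weak CKO, beside 9.09% and 5.38% of all genes tested. In strong CKO 3 of the 6 rose and 0 fell, beside 14.6% and 11%. The weak CKO calls of Cyp11a1 and Gata4 ended without WT_268_1 (1.79 and 0.70), WT_549_2 (1.65 and 0.83), MUT_W_265_2 (1.62 and 0.81) or MUT_W_268_3 (1.87 and 0.75), and that of Amh when any library other than WT_549_2 was left out (1.26 to 1.75). Without WT_549_2 the changes of Amh were 2.62 in weak CKO and 2.26 in strong CKO, both called, where the strong CKO change with all libraries was 1.34 and not called. Nr5a1 (0.143, 0.190 and 0.344 CPM), Cyp17a1 (0.120, 0.126 and 0.239 CPM) and Insl3 (0.239, 0.256 and 0.273 CPM) were under 0.35 CPM in every group mean. For Nr5a1 (13 counts in wild type and 29 in strong CKO) and Cyp17a1 (11 and 20) every strong CKO library lay above every wild type library, as was so for 22.7% of all genes tested. Star (8.53, 8.35 and 8.98 CPM) was at a like level in all groups, and Inha lay at 10.6, 7.56 and 9.82 CPM and was not called. The part of gonadal cells in the results was not tested beyond these values.

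The genes next to the members were called in both directions. Of the 20 nearest tested protein-coding neighbours, 1 on each side of each member, 2 rose and 2 fell in weak CKO and 3 rose and 6 fell in strong CKO. Of all genes tested 9.09% were called higher and 5.38% lower in weak CKO and 14.6% and 11% in strong CKO. The neighbours that rose were thus close to the share over all genes, and those that fell were above it. This was not tested, and several of the calls of a fall ended when single libraries were left out. Of the 10 neighbours of the 5 members that rose in both CKO groups, 1 rose and 2 fell in weak CKO and 1 rose and 4 fell in strong CKO. Asz1 lies between Wnt2, a growth signal of lung mesenchyme 20379 bases away, and Cftr, the chloride channel gene 61626 bases away. Wnt2 fell in both CKO groups (log2 changes of −1.11 ± 0.13 and −1.50 ± 0.13; adjusted p = 0.000477 and 5.89e-05 in edgeR), while Asz1 rose. Cftr fell in strong CKO (−0.43), a call that ended without WT_265_1 (−0.32), WT_268_1 (−0.41), MUT_S_265_5 (−0.36) or MUT_S_860_3 (−0.38). Mov10l1 lies 3902 bases from Mlc1, which fell in strong CKO (−0.36, ended without WT_549_2 at −0.34, MUT_S_265_5 at −0.27 or MUT_S_860_3 at −0.37), and 4582 bases from Panx2, which was not called (0.59 ± 0.43 and 0.92 ± 0.43). The neighbour of Piwil2 on one side, the zinc transporter gene Slc39a14, rose in both CKO groups (0.74 ± 0.12 and 0.90 ± 0.12), and Polr3d on the other side was not called (0.04 and 0.18). The neighbours of Mael, Dusp27 (0.17 and 0.07) and Ildr2 (0.13 and 0.20), were not called. Next to Tdrd9, Atp5mpl was not called (0.08 and 0.17), and Aspg, at 6.01 ± 4.96 CPM in wild type, fell in both groups (−3.83 ± 0.87 and −3.28 ± 0.84). Both Aspg calls ended without WT_549_2 (−3.08 and −2.53), the weak CKO call also without MUT_W_265_2 (−3.47) or MUT_W_268_3 (−3.58), and the strong CKO call also without MUT_S_265_5 (−3.48), MUT_S_268_4 (−3.22) or MUT_S_860_3 (−3.14).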

How the data were processed

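RNA from 9 whole lungs (3 per group) was measured. The authors' deposited table holds raw counts per gene, 1 column per library, and, per the file headers, RPKM values and a gene length. The submitters' processing notes name STAR, the genome GRCm38.p6, Trimmomatic 0.36, cutadapt 2.5, FastQC 0.11.8 and edgeR 3.28.1. How reads were counted, on which annotation and whether by strand is not given in the sources used here. Each deposited length equals the exons of all transcripts of GENCODE release 21 summed, plus 1 base per exon, for 96.4% of identifiers, so deposited RPKM understates genes with many transcripts. The RPKM library size was 1.03 to 1.13 times the column total.

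Counts were tested with edgeR 4.0.16 in R 4.3.3 (TMM factors 0.938 to 1.04, filterByExpr by group, 19374 of 27207 genes, 1 mean per group, robust quasi-likelihood F tests, two-sided, Benjamini-Hochberg over all genes tested, threshold 0.05). DESeq2 1.42.0, limma 3.58.1 on log2(RPKM + 1) and log2(RPKM + 0.1), other scalings, filters, a block, a covariate and leaving out each library were alternatives. The common biological coefficient of variation was 0.15. Counts were simulated for both CKO groups as one set against wild type (18977 genes). The fit recovered 95.9% of 49 genes lowered by 1 on the log2 scale and 100% of 42 genes raised by 1. Genes at low mean levels were left out of the changed genes, and every gene was simulated with the common coefficient of 0.15. Recovery with 3 against 3 libraries, for genes at low levels or for genes with a larger spread was not tested. An exact permutation test of 3 against 3 libraries cannot go below p = 0.1 and was not used. Genes were placed by identifier (27197 of 27207). Promoters came from a RefSeq table with 32851 starts.

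Named genes were the 10 members, the other pathway genes, the nearest neighbours, Dnmt1, Xist and Ddx3y. Up to 4 called genes per further list and contrast (small RNA machinery, Tudor partners, germ cells, gonadal cells) were also named. The remaining markers of the last 2 lists were added after their values were seen. The members and lists were chosen with earlier results of these data known.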

Additional observations from a re-analysis of the deposited data

How the results depend on the processing

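Over the 20 alternatives 4 to 5 members rose in weak CKO and 5 to 6 in strong CKO, and 9 to 12 and 11 to 13 of the other pathway genes. Mov10l1, Mael, Tdrd9 and Piwil2 kept their direction and call in all 20, although on the log2(RPKM + 1) scale their log2 changes shrank to 1.17, 0.57, 0.67 and 0.73 in weak CKO and 1.32, 0.71, 0.39 and 0.76 in strong CKO, since that scale compresses low values. The count of members that fell went from 0 to 1, Tdrd7, with the library number as a replicate block (−0.45 in strong CKO, adjusted p = 0.0122; also 1 for both CKO groups), to 1 for both groups in DESeq2, and ran from 0 to 1 when single libraries were left out. Tdrd5 turned to 0.03 in strong CKO without MUT_S_265_5. Correlations of same-numbered libraries' deviations ran from −0.09 to 0.35 and 4 of 7 such pairs were over 0.1, with the other 3 at −0.09 to 0.08, while 6 of 8 libraries correlated best with their own number. That is a hint of pairing from the data, not from the labels, and the samples were treated as sharing only a number; besides Tdrd7, the block ended the strong CKO calls of Tdrkh (0.46) and Exd1 (0.88) and brought Tex15 past the threshold in weak CKO (0.45). Dnmt1 in weak CKO was called in DESeq2 (−0.52) and with the block (−0.50), and ran from −0.65 to −0.34 with single libraries left out, called without WT_265_1 or MUT_W_549_3. In strong CKO its call ended in 11 of 20 alternatives, on log2(RPKM + 0.1) (−0.49), on log2(RPKM + 1) with and without a filter (−0.38 in both), without a filter on counts (−0.52), in the fit of only the groups compared (−0.53) and after upper quartile scaling (−0.51), and without WT_268_1, WT_549_2, MUT_W_268_3, MUT_S_265_5 or MUT_S_860_3 (−0.67 to −0.36 over all single libraries left out). In a window of 200 bases, CACGTG was found in 3 members and TCCCGC in 1 (5.45% and 16.1% of all starts). Of all genes, 1761 rose and 1042 fell in weak CKO, against 966 and 344 without MUT_W_268_3, 1013 and 419 without MUT_W_265_2, and 1155 and 611 without WT_549_2. The fit of only the groups compared gave no value for both CKO groups together. The cause of these changes was not tested. With 0 to 14 wild type counts per library for Mov10l1, Mael and Piwil2, depth limits the size of their folds.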

Other observations

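The traces of pathway transcripts in wild type lung differed between libraries. WT_268_1, the wild type library with Xist and without Ddx3y, held 1 count of Piwil2, against 14 in WT_265_1 and 10 in WT_549_2. Stk31 lay at 0.0323 CPM in WT_268_1, against 0.384 and 0.311 CPM, and Mael had 0 counts there, against 3 and 1. Ddx4 was at 0.420 CPM in WT_268_1, against 0.837 and 0.560 CPM, whereas Rnf17 was highest there, at 1 CPM against 0.628 and 0.685 CPM. Piwil1 had 3 counts and Fkbp6 1 count in WT_268_1, against 0 in the other wild type libraries. Mov10l1 (0.129 CPM, against 0.105 and 0.218) and Tdrd9 (0.291 CPM, against 0.419 and 0.156) lay in between. The genes named here were picked after their values were seen. These are values of 1 library against 2 within a group, and no test was made.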
